A study of Mus musculus with 12 samples.

Results

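The genes of hepatic de novo lipogenesis, the pathway that makes fatty acids from carbohydrate carbon, were followed in liver RNA from mice with and without p53 on 2 diets. The set was chosen by name and holds 10 of the 52636 genes listed in the count files: the enzymes Acly, Acaca, Acacb, Fasn, Elovl6, Scd1 and Me1, the factors Mlxipl and Thrsp, and the lipid droplet protein gene Pnpla3. Of the 10 genes, 9 passed the filter on low counts and were tested. Pnpla3, with 1 to 17 counts per library, did not pass and is given by its levels. The libraries were made from liver of C57BL/6 mice aged 12 weeks and fall into 4 groups of 3: p53 wild type on normal diet (wt_normal), p53 knockout on normal diet (ko_normal), p53 wild type on high-fat diet (wt_HFD) and p53 knockout on high-fat diet (ko_HFD). The sources used here do not say whether the knockout was whole-body or limited to a tissue, nor the sex of the mice, the composition and length of the diet, the feeding state or the hour of sampling. They also do not say that replicates were separate animals, so a p-value here sets a difference against the spread between libraries, part of which could be technical.

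In the liver, ATP citrate lyase (Acly) turns cytosolic citrate into acetyl-CoA, and malic enzyme (Me1) supplies NADPH. The acetyl-CoA carboxylases (Acaca and Acacb) make malonyl-CoA, fatty acid synthase (Fasn) builds palmitate from it, Elovl6 lengthens the chain, and stearoyl-CoA desaturase (Scd1) adds the double bond. Insulin acts on the pathway through SREBP-1c, encoded by Srebf1, and glucose acts on it through ChREBP, encoded by Mlxipl. Thrsp (Spot 14) is a small nuclear protein that responds to thyroid hormone and carbohydrate feeding, and Pnpla3 is a target of SREBP-1c in mouse liver.

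Total counts ran from 15465187 to 20492567 per library. Trp53, the gene deleted in the ko mice, lay between 8.54 and 24.5 CPM (read counts scaled by TMM-adjusted library totals) in the 6 wt libraries and between 0.273 and 1.62 CPM in the 6 ko libraries. The hepatocyte marker genes were abundant in all 12 libraries. Their summed level was 46024 to 62049 CPM in wt and 77553 to 87448 CPM in ko libraries. The sum, which is weighted to its most abundant genes, thus separated the genotypes. By gene, the log2 differences of ko against wt over both diets ran from -0.21 to 0.86 (median 0.18), with 6 of 8 above 0. Library wt_normal replicate 2 stood apart, with a skeletal muscle marker sum of 7058 CPM against at most 12.7 CPM elsewhere, a B cell marker sum of 147 CPM against at most 13.4 CPM, and an adipocyte marker sum of 169 CPM. The adipocyte sum was 104 CPM in ko_HFD replicate 3 and 19.9 to 41.7 CPM in the other 10 libraries, and Lep was at 0 in all 12. The mitochondrial share of counts was 14.6% in ko_normal replicate 1, 10.3% in ko_HFD replicate 2 and 4.18% to 7.22% elsewhere. In bulk tissue, fewer cells of a type and less RNA per cell cannot be told apart.

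Promoter sequence is shown for Fasn, Thrsp and Mlxipl, the 3 members with the smallest p for genotype over both diets. Each window is the RefSeq sequence from 250 bases before to 50 bases after an annotated start, on build GRCm38.p6, printed 5′ to 3′ on the gene's strand. Capitals mark matches on either strand to CCAAT, to the E-box CACGTG or to TCACNCCAC, the core of the sterol response element bound by SREBP.
Fasn (chr11:120824498-120824797, minus strand): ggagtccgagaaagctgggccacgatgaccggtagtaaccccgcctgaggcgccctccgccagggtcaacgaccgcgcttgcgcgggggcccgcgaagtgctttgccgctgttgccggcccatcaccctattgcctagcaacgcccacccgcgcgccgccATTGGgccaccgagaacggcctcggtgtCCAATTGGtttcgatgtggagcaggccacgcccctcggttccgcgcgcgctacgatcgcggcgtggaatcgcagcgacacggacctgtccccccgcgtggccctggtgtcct
Thrsp (chr7:97417501-97417800, minus strand): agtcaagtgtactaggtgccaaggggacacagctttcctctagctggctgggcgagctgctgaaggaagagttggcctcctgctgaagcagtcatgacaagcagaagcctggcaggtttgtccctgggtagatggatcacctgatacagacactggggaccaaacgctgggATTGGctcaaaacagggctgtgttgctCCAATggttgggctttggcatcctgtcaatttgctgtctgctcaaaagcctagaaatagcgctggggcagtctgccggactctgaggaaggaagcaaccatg
Mlxipl upstream start (chr5:135089640-135089939, plus strand): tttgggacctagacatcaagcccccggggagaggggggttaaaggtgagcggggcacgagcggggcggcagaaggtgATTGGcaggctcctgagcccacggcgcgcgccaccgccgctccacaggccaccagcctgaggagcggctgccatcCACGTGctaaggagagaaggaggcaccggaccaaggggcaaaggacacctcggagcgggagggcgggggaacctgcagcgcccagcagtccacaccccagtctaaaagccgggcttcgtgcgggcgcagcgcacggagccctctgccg
Mlxipl downstream start (chr5:135106641-135106940, plus strand): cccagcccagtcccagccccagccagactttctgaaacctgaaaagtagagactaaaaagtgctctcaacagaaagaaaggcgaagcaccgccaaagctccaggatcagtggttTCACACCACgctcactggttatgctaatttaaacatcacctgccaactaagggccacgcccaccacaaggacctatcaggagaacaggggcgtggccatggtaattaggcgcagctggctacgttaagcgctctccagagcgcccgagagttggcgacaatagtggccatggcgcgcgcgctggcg

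The Fasn window held 3 CCAAT matches, of which the last 2 overlap in the palindrome CCAATTGG, and the Thrsp window held 2. Mlxipl has 2 annotated starts 17001 bases apart. Its upstream window held an E-box and a CCAAT match, and its downstream window held the sterol response core. Windows were found for 9 of the 10 genes, 11 windows in all; Scd1 was not among them. CCAAT occurred in 7 of the 11 windows and in 37.4% of 32851 promoters, the E-box in 1 and in 7.15%, and TCACNCCAC in 1 and in 1.24%. The LXR element of the DR4 type (0.0152% of promoters), the carbohydrate response element consensus (0.0274%) and the p53 half-site (8.36%) had no match in the 11 windows. A match is a description of these letters and not a measured binding site. At these shares few or no matches would be expected in 11 windows, and no sequence outside the windows was searched. The lack of a match therefore does not show that a gene lacks the element.

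Fasn was the only member that passed the test in any comparison. It was 1.85-fold higher in ko than in wt livers averaged over both diets (log2 difference 0.88, standard error (SE) 0.15, adjusted p = 0.0152, edgeR quasi-likelihood test with Benjamini-Hochberg adjustment over 14433 genes). In that comparison 1.16% of all genes tested passed at an adjusted p under 0.05, and 0.790% passed and were higher in ko. The other 8 tested members did not pass, although 6 of them were higher in ko at an unadjusted p under 0.05: Mlxipl, Thrsp, Scd1, Elovl6, Me1 and Acaca. Counting Fasn, 7 of 9 members had an unadjusted p under 0.05 and were higher in ko, against 9.05% of all genes. The median log2 difference was 0.71 over the 9 members and -0.01 over all genes. The calls of the other members depended on the test, since DESeq2 also passed Thrsp and Mlxipl there, where it passed 5.96% of all 14433 genes.

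**Figure D1:**
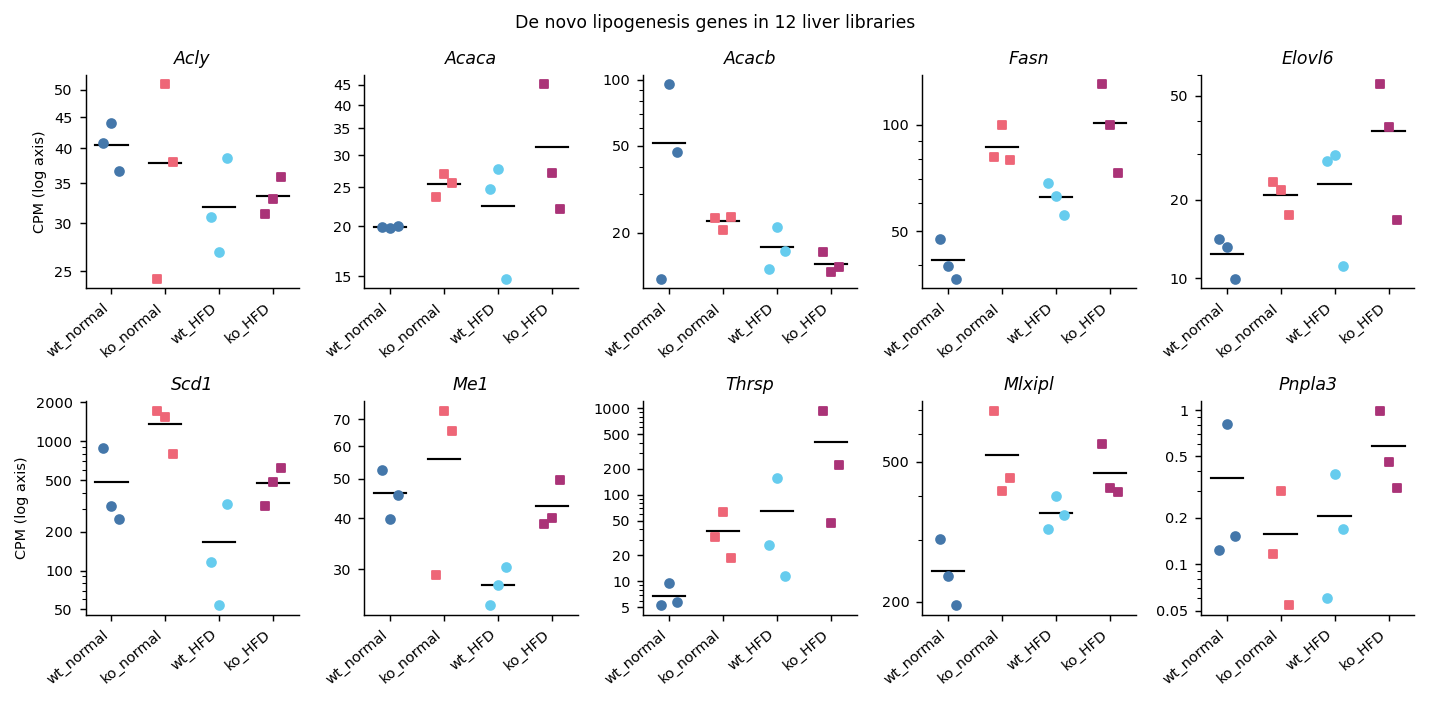
CPM on a log axis of the 10 lipogenic genes in the 12 liver libraries, by group; each point is 1 library, placed left to right as replicates 1, 2 and 3, and each black line is the group mean. The 3 wt_normal points of Fasn, Thrsp and Mlxipl lie below every ko_normal point, and Thrsp spans 5.35 to 938 CPM.

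Carbon and reducing power came first in the pathway. Acly (ENSMUSG00000020917, chromosome 11, 100476353 to 100528000, build GRCm38) stood at 40.8, 44.0 and 36.7 CPM in wt_normal, 24.3, 51.1 and 38.0 CPM in ko_normal, 30.7, 26.9 and 38.5 CPM in wt_HFD, and 31.1, 32.9 and 35.9 CPM in ko_HFD (replicates 1, 2 and 3 in that order, here and below). The groups overlapped in every comparison. Its lowest and highest libraries both belonged to ko_normal and differed 2.10-fold, the narrowest range of the 10 genes. No comparison gave Acly an unadjusted p under 0.05, and its averaged genotype difference was -0.02 (SE 0.16).

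Me1 (ENSMUSG00000032418, chromosome 9, 86581371 to 86695953) had 52.5, 39.9 and 45.5 CPM in wt_normal, 29.0, 73.5 and 65.6 CPM in ko_normal, 24.5, 27.4 and 30.3 CPM in wt_HFD, and 38.8, 40.1 and 49.6 CPM in ko_HFD. The wt_HFD libraries lay below all wt_normal and all ko_HFD libraries, while ko_normal spanned both sides of wt_normal. The wt diet difference was -0.75 (SE 0.27, adjusted p = 0.199) and the ko against wt difference on HFD was 0.65 (SE 0.27, adjusted p = 0.540). Averaged over diets the genotype difference was 0.47 (SE 0.19, adjusted p = 0.219), and averaged over genotypes the diet difference was -0.57 (SE 0.19, adjusted p = 0.157). None passed the test in edgeR with all 12 libraries. Without ko_normal replicate 1 the averaged genotype and diet differences were 0.62 and -0.72, and both passed (adjusted p = 0.0401 and 0.0276, edgeR).

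Both carboxylases were tested. Acaca (ENSMUSG00000020532, chromosome 11, 84129672 to 84401651), which makes the cytosolic malonyl-CoA used for synthesis, had 19.9, 19.8 and 20 CPM in wt_normal, 23.6, 26.9 and 25.6 CPM in ko_normal, 24.8, 27.7 and 14.8 CPM in wt_HFD, and 45.1, 27.1 and 22.1 CPM in ko_HFD. Both normal-diet groups were tight and did not overlap, with means of 19.9 ± 0.11 and 25.4 ± 1.6 CPM (SD, n = 3). On HFD the groups overlapped and the spread was wider, at 22.4 ± 6.7 and 31.4 ± 12 CPM (SD, n = 3). The averaged genotype difference was 0.42 (SE 0.18) and missed the threshold (adjusted p = 0.244, edgeR).

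Acacb (ENSMUSG00000042010, chromosome 5, 114146535 to 114250761) encodes the carboxylase at the mitochondrial surface, whose malonyl-CoA restrains fatty acid oxidation and which is prominent in muscle. It stood at 12.4, 95.2 and 46.9 CPM in wt_normal, 23.5, 20.7 and 23.6 CPM in ko_normal, 13.7, 21.2 and 16.6 CPM in wt_HFD, and 16.4, 13.3 and 14.0 CPM in ko_HFD. The wt_normal group held both the lowest and the highest of the 12 libraries and overlapped every other group, whereas ko_HFD lay below ko_normal without overlap. The highest value came from wt_normal replicate 2, the library with the skeletal muscle sum of 7058 CPM. The next highest, in replicate 3, came with a muscle sum of 8.07 CPM. The part of muscle RNA in the Acacb values was not tested.

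Acacb was lower in wt_HFD than in wt_normal by the fit (log2 difference -1.59, SE 0.49) but missed the threshold (adjusted p = 0.141, edgeR). Without wt_normal replicate 2 the difference was -0.78 (adjusted p = 0.473). Without wt_normal replicate 1 it was -2.05 and passed (adjusted p = 0.0148). The ko against wt difference on normal diet was -1.19 (SE 0.48, adjusted p = 0.265), and it was -0.38 (adjusted p = 0.832) without wt_normal replicate 2. Without wt_normal replicate 1 it was -1.65 and passed (adjusted p = 0.0441), and Acacb then also passed as lower in ko over both diets and as lower on HFD over both genotypes. Averaged over genotypes the diet difference was -1.11 (SE 0.34, adjusted p = 0.126). Acacb and Acly were the 2 tested members whose fitted ko difference on normal diet lay below 0.

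Fasn (ENSMUSG00000025153, chromosome 11, 120805846 to 120824547), the enzyme that gives the pathway its product, had 47.4, 39.9 and 36.7 CPM in wt_normal, 80.8, 99.6 and 79.5 CPM in ko_normal, 68.2, 62.7 and 55.6 CPM in wt_HFD, and 130, 99.9 and 72.9 CPM in ko_HFD. Group means were 41.3 ± 5.5, 86.6 ± 11, 62.2 ± 6.3 and 101 ± 29 CPM (SD, n = 3). Every ko library lay above every wt library on the same diet, and the lowest ko library (72.9 CPM) lay above the highest wt library (68.2 CPM). The wt_HFD libraries lay above the wt_normal libraries without overlap, while the ko groups overlapped across diets.

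The rise of Fasn over both diets kept its direction with each library left out (log2 differences from 0.79 to 0.98). The call was lost without wt_normal replicate 3 (adjusted p = 0.0557, edgeR). On each diet alone the difference missed the threshold, at 1.07 (SE 0.21, adjusted p = 0.0606) on normal diet and 0.70 (SE 0.21, adjusted p = 0.401) on HFD. The diet difference in wt was 0.59 (SE 0.21, adjusted p = 0.182), and averaged over genotypes it was 0.41 (SE 0.15, adjusted p = 0.179). The change in the ko effect from normal diet to HFD was -0.37 (SE 0.29, adjusted p = 0.995), so a difference between diets was not shown.

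The chain made by the synthase is then lengthened and desaturated. Elovl6 (ENSMUSG00000041220, chromosome 3, 129532355 to 129638495), which elongates palmitate to stearate, stood at 14.1, 13.2 and 9.96 CPM in wt_normal, 23.4, 21.7 and 17.4 CPM in ko_normal, 28.1, 29.7 and 11.1 CPM in wt_HFD, and 55.3, 37.8 and 16.7 CPM in ko_HFD. The ko_normal libraries all lay above wt_normal. On HFD replicate 3 of either genotype was far below its group's other libraries, and the groups overlapped. Fitted differences were 0.71 (SE 0.28, adjusted p = 0.204) for genotype and 0.85 (SE 0.28, adjusted p = 0.150) for diet, each averaged over the other factor, and 0.89 (SE 0.40, adjusted p = 0.289) for diet in wt. An antisense gene, Gm35986, overlaps Elovl6 and had 335 counts over the 12 libraries against 4853 for Elovl6; whether counting used strand is not given.

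Scd1 (ENSMUSG00000037071, chromosome 19, 44394455 to 44407879) makes oleate and palmitoleate. It had 884, 313 and 249 CPM in wt_normal, 1728, 1538 and 797 CPM in ko_normal, 116, 54.3 and 329 CPM in wt_HFD, and 318, 486 and 620 CPM in ko_HFD. The ko_normal group was the highest and lay above ko_HFD without overlap. The wt_HFD group was the lowest and overlapped both wt_normal and ko_HFD. The highest library exceeded the lowest 31.8-fold.

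In the fit Scd1 was higher in ko on normal diet (1.49, SE 0.61, adjusted p = 0.277) and on HFD (1.51, SE 0.61, adjusted p = 0.519), and the average was 1.5 (SE 0.43, adjusted p = 0.105, edgeR). It was lower on HFD in wt (-1.53, SE 0.61, adjusted p = 0.233) and in ko (-1.51, SE 0.61, adjusted p = 0.868), with an average of -1.52 (SE 0.43, adjusted p = 0.107). The genotype and diet differences were of opposite sign, and none passed the test. Their sizes rested on single libraries. Without wt_normal replicate 1 the wt diet difference was -0.75 and the ko difference on normal diet 2.27. Without wt_HFD replicate 3 the wt diet difference was -2.5 and the ko difference on HFD 2.48, and the diet difference over both genotypes, -2.01, passed (adjusted p = 0.0282). The paralogue Scd2 ran from 1.31 to 7.19 CPM, and Scd3 and Scd4 stayed at or below 0.188 CPM. How reads that match several of these paralogues were counted is not given.

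Of the factors, Mlxipl (ENSMUSG00000005373, chromosome 5, 135089890 to 135138382) had 301, 237 and 196 CPM in wt_normal, 699, 414 and 449 CPM in ko_normal, 322, 400 and 352 CPM in wt_HFD, and 563, 420 and 409 CPM in ko_HFD. All ko libraries lay above all wt libraries, the lowest ko library at 409 CPM and the highest wt library at 400 CPM. Fasn and Mlxipl were the 2 of 9 tested members whose ko libraries lay above the wt libraries without overlap on each diet, as did 1.86% of all genes tested. The wt_HFD libraries also lay above all wt_normal libraries, and the ko groups overlapped across diets.

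Mlxipl was higher in ko on normal diet by 1.09 (SE 0.24, adjusted p = 0.0874) and averaged over diets by 0.73 (SE 0.17, adjusted p = 0.0599) in edgeR, and passed in neither. Its wt diet difference was 0.55 (SE 0.24, adjusted p = 0.263). The change in the ko effect between diets was -0.72 (SE 0.34, unadjusted p = 0.0527, adjusted p = 0.978, edgeR), the smallest p of the 9 members for that term. Neither of its starts can be assigned from gene counts.

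Thrsp (ENSMUSG00000035686, chromosome 7, 97412938 to 97417730) varied most of the tested members. It stood at 5.35, 9.47 and 5.72 CPM in wt_normal, 32.9, 62.9 and 18.6 CPM in ko_normal, 26.5, 157 and 11.5 CPM in wt_HFD, and 938, 46.9 and 220 CPM in ko_HFD. Its counts ran from 87 to 16065 per library, so the 175-fold range from lowest to highest is well above counting error. The wt_normal libraries lay below every library of the other 3 groups, and the HFD groups overlapped each other.

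The averaged diet difference of Thrsp was 3.32 (SE 0.74, adjusted p = 0.0543) and the averaged genotype difference was 2.55 (SE 0.72, adjusted p = 0.1) in edgeR. Neither passed with all libraries. The diet difference passed without wt_HFD replicate 3 or without ko_HFD replicate 2, and the genotype difference passed without wt_HFD replicate 2. Single comparisons gave 2.47 (SE 1.03, adjusted p = 0.283) for ko on normal diet, 2.63 (SE 1.01, adjusted p = 0.499) for ko on HFD, 3.24 (SE 1.06, adjusted p = 0.159) for HFD in wt and 3.40 (SE 1.05, adjusted p = 0.660) for HFD in ko. Single libraries set the HFD values. The ko difference on HFD was 1.04 without ko_HFD replicate 1 and 4.40 without wt_HFD replicate 2, and the wt diet difference was 1.5 without wt_HFD replicate 2.

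**Figure D2:**
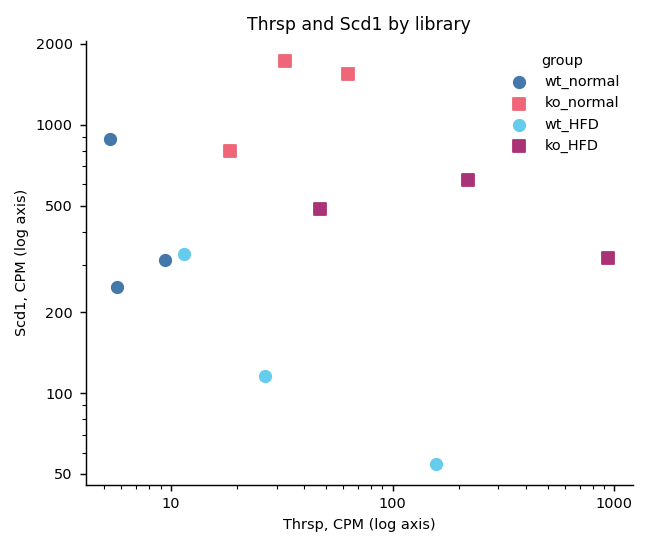
Thrsp CPM (horizontal log axis) against Scd1 CPM (vertical log axis), 1 point per library, marked by group. All wt_HFD points lie to the right of the wt_normal points, and all ko_HFD points lie below the ko_normal points; neither gene passed the adjusted threshold.

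Pnpla3 (ENSMUSG00000041653, chromosome 15, 84167837 to 84187236) was close to the detection limit, with 0.123, 0.809 and 0.153 CPM in wt_normal, 0.116, 0.300 and 0.0545 CPM in ko_normal, 0.0601, 0.387 and 0.170 CPM in wt_HFD, and 0.993, 0.460 and 0.313 CPM in ko_HFD. The ko_HFD libraries lay above the ko_normal libraries, and the other groups compared overlapped. At 1 to 17 counts per library these differences were not tested.

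Levels of different genes can be compared per kilobase of exon. Over the 12 libraries Scd1 had the highest mean, 127 CPM per kilobase, followed by Mlxipl at 71.7 and Thrsp at 58.5. Me1 stood at 11.2, Acly at 6.80, Fasn at 6.65, Elovl6 at 3.61, Acacb at 2.75, Acaca at 1.45 and Pnpla3 at 0.212 CPM per kilobase. Neighbours in this order overlapped in their ranges over libraries, except that all Pnpla3 values (at most 0.641) lay below all Acaca values (at least 0.870). The order depended on group. Mlxipl (64.7) was above Scd1 (34.0) in wt_HFD, Fasn was below Acly in wt_normal (3.78 against 7.67) and above it in ko_normal (7.91 against 7.16), and Acacb was above Elovl6 in wt_normal (5.35 against 1.93). Thrsp was at 3.13 CPM per kilobase in wt_normal, below Acly, and at 184 CPM per kilobase in ko_HFD, above Scd1 (97.0).

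For genotype on normal diet, 0 of 9 members passed in edgeR, where 0.208% of all genes passed. DESeq2 passed Fasn and Mlxipl, and 3.67% of all genes. Of the 9 members, 4 were higher at an unadjusted p under 0.05 (7.31% of all genes) and 1, Acacb, was lower (7.77%). The ko libraries lay above the wt libraries without overlap for 5 members, Acaca, Fasn, Elovl6, Thrsp and Mlxipl, as they did for 11.4% of all genes. The median log2 difference was 0.74 over members and -0.02 over all genes.

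On HFD, 0 of 9 members passed for genotype in edgeR and 0 in DESeq2, against 0.0693% of all genes in edgeR and 0.658% in DESeq2. At an unadjusted p under 0.05, 4 members were higher in ko (Fasn, Scd1, Me1 and Thrsp; 4.50% of all genes) and 0 were lower (4.35%). The ko libraries lay above wt without overlap for Fasn, Me1 and Mlxipl, as for 6.70% of all genes. The members' median of 0.65 dropped to 0.25 without ko_HFD replicate 1, the library in which Acaca, Fasn, Elovl6 and Thrsp each had their highest level. The change in the ko effect between diets passed for 0 of 9 members and for 0% of all genes in edgeR (5.02% at an unadjusted p under 0.05, 0 of them members), while DESeq2 passed 19 genes (0.132%) and 0 members.

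**Figure D3:**
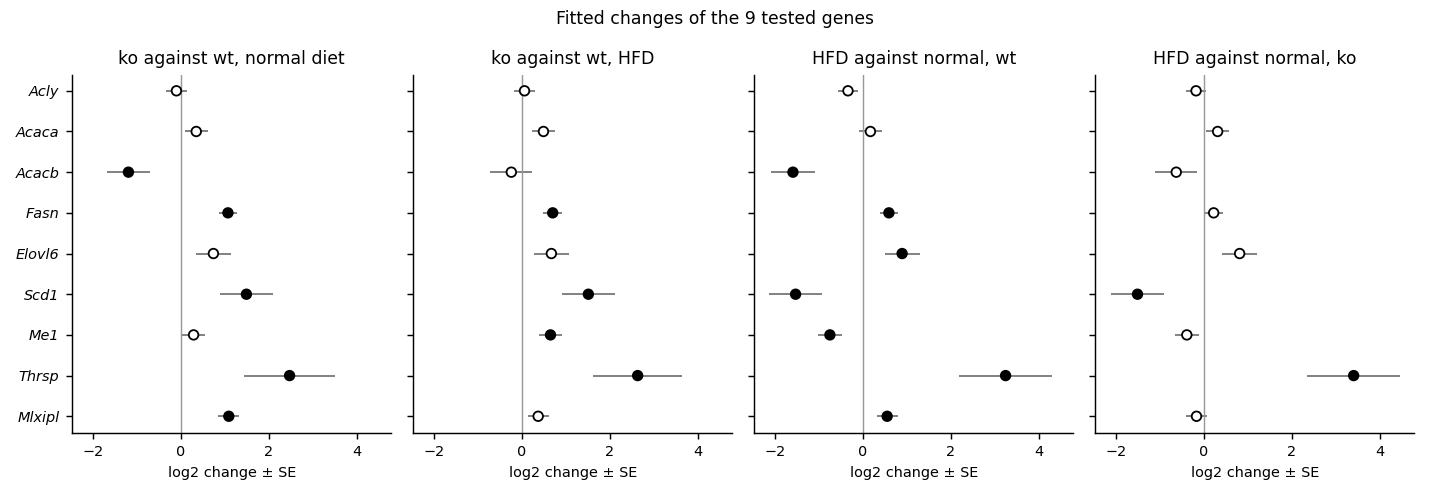
Fitted log2 differences (horizontal axis) with SE bars for the 9 tested genes in the 4 single comparisons, 3 libraries a group; filled points have an unadjusted p under 0.05, and none passed the adjusted threshold. Thrsp lies to the right in all 4 panels, and Scd1 lies to the right for genotype and to the left for diet.

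The diet comparisons set HFD against normal diet as labelled, since the composition of the diets is not given. In wt livers 0 of 9 members passed in edgeR, against 0.693% of all genes, and DESeq2 passed Acacb and 4.57% of all genes. At an unadjusted p under 0.05, Thrsp, Elovl6, Fasn and Mlxipl were higher on HFD (8.49% of all genes) and Acacb, Scd1 and Me1 were lower (8.51%), so 7 of 9 members met that mark against 17.0% of all genes. Their directions were mixed, and the median was 0.17. The libraries did not overlap for Fasn, Thrsp and Mlxipl, which were higher (11.2% of all genes), and for Me1, which was lower (10.7%).

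In ko livers 0 of 9 members passed for diet in edgeR or DESeq2, and 0% of all genes passed in edgeR (5.63% at an unadjusted p under 0.05, and 37 genes, 0.256%, by DESeq2). Thrsp was higher (2.64% of all genes) and Scd1 lower (2.99%) at an unadjusted p under 0.05. Acacb and Scd1 lay below ko_normal without overlap, as did 5.96% of all genes. Averaged over genotypes, 0 of 9 members and 1.04% of all genes passed in edgeR, and DESeq2 passed Thrsp and Acacb and 5.59% of all genes. Of the 6 members with an unadjusted p under 0.05 (17.6% of all genes), Thrsp, Elovl6 and Fasn were higher (9.06%) and Scd1, Acacb and Me1 lower (8.55%). The genotype comparisons share groups with the diet comparisons, so their values are not independent of each other.

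Across libraries, each gene's log2 CPM was standardised to mean 0 and SD 1. The mean over the 9 tested members was -0.61 to -0.21 in the wt libraries and 0.13 to 0.86 in the ko libraries, with ko_HFD replicate 1 the highest at 0.86. Fasn was nearest to the other members, with a root mean square distance of 0.685 SD to their mean profile, where the median over all genes was 1.06 SD. Acaca followed at 0.750 SD. Acly, at 1.16 SD, and Acacb, at 1.29 SD, were farther from the other members than the median gene (1.11 and 1.12 SD). The 5 other genes nearest to the members' mean profile over the 12 libraries were Gm32872 (0.560 SD), Depdc7 (0.562 SD), Mmd2 (0.569 SD), Jarid2 (0.580 SD) and Gm4742 (0.595 SD).

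**Figure D4:**
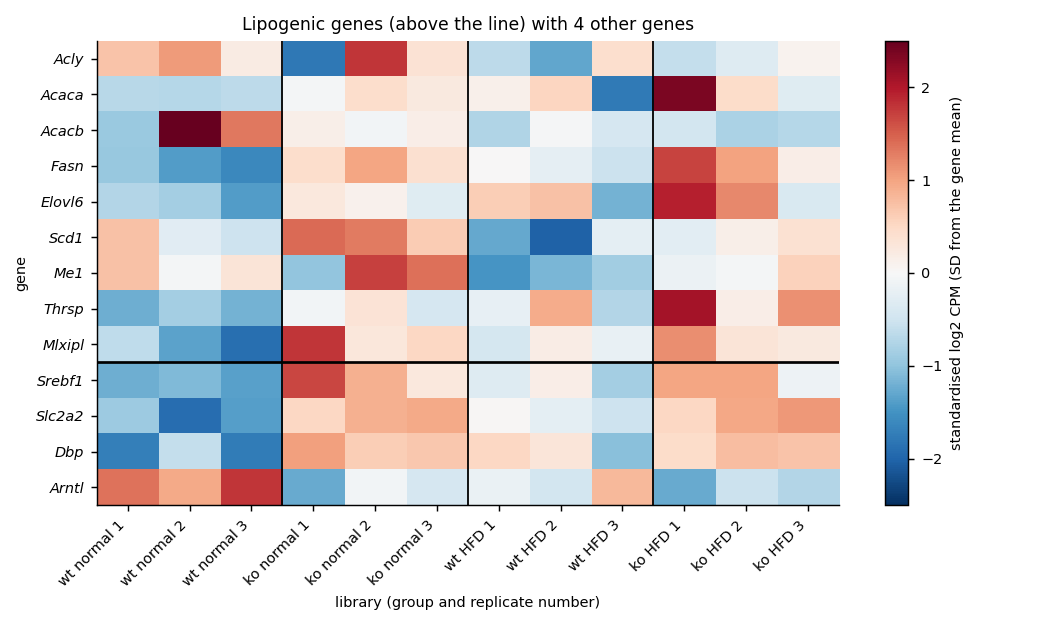
Standardised log2 CPM (colour, in SD from each gene's mean) of the 9 tested lipogenic genes and of Srebf1, Slc2a2, Dbp and Arntl (rows, below the line) in the 12 libraries (columns, by group). Fasn is blue in wt_normal and red in ko_normal, as are Srebf1, Slc2a2 and Dbp, and Arntl shows the opposite colours.

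The regulators of the pathway were read from lists chosen by function. Of 12 tested genes of SREBP-1c and LXR control, 2 rose in ko averaged over diets and 0 fell, with a list median of 0.08. Srebf1 stood at 24.6, 26.4 and 22.9 CPM in wt_normal, 124, 79.6 and 56.2 CPM in ko_normal, 40.7, 53.4 and 30.3 CPM in wt_HFD, and 84.2, 84.2 and 45.4 CPM in ko_HFD. The genotypes overlapped on HFD and not on normal diet. It rose 2.46-fold over both diets (log2 1.30, SE 0.22, adjusted p = 0.0167, edgeR), and the call was lost without wt_normal replicate 3 (adjusted p = 0.0557). Insig1, which holds SREBP precursors in the endoplasmic reticulum, rose 1.52-fold (log2 0.60, SE 0.12, adjusted p = 0.0388). That call was lost with any library left out except wt_HFD replicate 3 (adjusted p up to 0.0926) and with the replicate block (0.0546), while the log2 value stayed between 0.52 and 0.66.

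On normal diet alone, Srebf1 (log2 1.81, SE 0.31, adjusted p = 0.0449) and Insig1 (1.03, SE 0.17, adjusted p = 0.0446) also passed in edgeR. The Srebf1 call was lost without any one library of the wt_normal or ko_normal groups or without ko_HFD replicate 1 or 2 (adjusted p up to 0.136). The Insig1 call was lost without wt_normal replicate 2 or 3, any ko_normal library or any ko_HFD library (adjusted p up to 0.125), and with only the groups compared (0.0566). In wt livers Insig1 was the 1 gene of the list that rose on HFD (0.84, SE 0.17, adjusted p = 0.0499). That call was lost without any library but ko_normal replicate 1 (adjusted p up to 0.146), with the replicate block (0.0638) and with only the groups compared (0.0921).

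Among 11 tested ChREBP partners and glucose entry targets, 1 rose in ko over both diets and 0 fell (median 0.25). Slc2a2, the hepatocyte glucose transporter, had 27.9 to 51.6 CPM in wt_normal and 125 to 163 CPM in ko_normal, then 65.5 to 91.9 CPM in wt_HFD and 124 to 177 CPM in ko_HFD, with no overlap between genotypes. It rose 2.73-fold (log2 1.45, SE 0.17, adjusted p = 0.00190, edgeR) and passed under all 18 alternatives. Pklr, the liver pyruvate kinase gene and a ChREBP target, was higher by 1.47 (SE 0.35, adjusted p = 0.0616) and did not pass. On normal diet alone Slc2a2 rose by 1.91 (SE 0.24, adjusted p = 0.00984), a call lost without wt_normal replicate 3 or ko_normal replicate 3 (adjusted p up to 0.0660).

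The other pathway lists held few calls, and no gene of the 6 pathway lists passed for genotype on HFD, for diet in ko or for the change of the ko effect between diets. None of 8 genes of citrate export, acetate activation and NADPH supply passed for genotype averaged over diets (median 0.09), and the smallest p was that of Acss2, acetyl-CoA synthetase, at 0.51 (SE 0.14, adjusted p = 0.0907, edgeR). None of 9 AMPK, malonyl-CoA turnover and carboxylase regulator genes passed (median 0.00). Mid1ip1, a Thrsp paralogue that activates acetyl-CoA carboxylase, was higher by 0.81 (SE 0.25, adjusted p = 0.124). None of 9 insulin signalling genes passed for genotype (median -0.02), and Foxo1, a transcription factor that insulin restrains, rose on HFD averaged over genotypes (log2 0.58, SE 0.11, adjusted p = 0.0344). The Foxo1 call was lost in 11 of 18 alternatives (adjusted p up to 0.0889), namely the replicate block and the omission of any library but wt_HFD replicate 3 and ko_HFD replicate 3. Of 6 tested paralogues of members none passed for genotype, with Scd2 at -1.26 (SE 0.33, adjusted p = 0.0807), opposite in sign to Scd1.

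Clock genes moved with genotype as well. Of the 12 listed, 8 had an unadjusted p under 0.05 for genotype over both diets in edgeR (2700 of all 14433 genes). For diet in wt livers 6 did (2453 of all genes), led by Dbp, Per2 and Arntl, and 0 passed. For diet in ko livers 0 did (812 of all genes). Of 12 tested genes of the core clock and its output, Per2 (log2 1.42, SE 0.26, adjusted p = 0.0249) and Dbp (2.76, SE 0.58, adjusted p = 0.0419) rose in ko over both diets and Arntl fell by 1.90 (SE 0.35, adjusted p = 0.0291, edgeR). These calls were lost in 5, 9 and 7 of 18 alternatives, each of them with a single library left out, with adjusted p up to 0.0706, 0.0926 and 0.0826. For Per2 these were wt_normal replicate 1, ko_normal replicates 1 and 3, wt_HFD replicate 3 and ko_HFD replicate 3. For Dbp they were wt_normal replicates 1 and 3, wt_HFD replicate 2 and every ko library, and for Arntl wt_normal replicate 3, ko_normal replicates 1 and 3, wt_HFD replicate 3 and every ko_HFD library. The summed level of the list was 246 to 378 CPM in wt_normal against 537 to 1006 CPM in ko_normal. On HFD it was 344 to 567 CPM in wt and 585 to 642 CPM in ko, so the sum lay higher in ko on each diet. A sum is weighted to its most abundant genes. By gene the list moved both ways, with 7 of 12 differences over both diets above 0 (range -1.90 to 2.76). Dbp was at 2.15, 13.5 and 2.04 CPM in wt_normal and at 191, 97.3 and 107 CPM in ko_normal. On HFD, wt replicate 3 had the lowest Dbp (6.52 CPM) and also the lowest Fasn, Elovl6, Acaca and Thrsp of its group, but the highest Acly, Scd1 and Me1. For Dbp the ko_HFD group went the other way. Its replicate 1 had the lowest Dbp of the group and the highest Fasn, Elovl6, Acaca and Thrsp of all libraries. Dbp differed little within ko_HFD, with standardised log2 CPM of 0.454, 0.772 and 0.706 SD, against 0.524, 0.31 and -1.046 SD in wt_HFD. Arntl was the highest of its group in wt_HFD replicate 3 (0.805 SD) and the lowest of its group in ko_HFD replicate 1 (-1.259 SD). The part of sampling time or feeding in the lipogenic values was not tested.

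Of 8 tested fasting genes, Igfbp1, an insulin-repressed binding protein gene, fell by 2.98 in ko over both diets (SE 0.60, adjusted p = 0.0385, edgeR) and 0 rose. It ran from 97.2 to 989 CPM in wt and from 9.84 to 95.6 CPM in ko libraries, and its call was lost in 10 of 18 alternatives (adjusted p up to 0.0943): the replicate block and the omission of any normal-diet library, wt_HFD replicate 3 or ko_HFD replicate 2 or 3. Pck1, the gluconeogenic carboxykinase gene, fell by 1.14 on HFD averaged over genotypes (SE 0.21, adjusted p = 0.0305), a call lost without wt_normal replicate 1 or 3, ko_normal replicate 1 or 3, wt_HFD replicate 2 or ko_HFD replicate 1 or 2 (adjusted p up to 0.0817).

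Markers of liver cell types also moved with genotype. Alb, the hepatocyte product albumin, rose in ko over both diets (log2 0.86, SE 0.18, adjusted p = 0.0391) and Lyve1, a sinusoidal endothelial marker, fell by 1.82 (SE 0.35, adjusted p = 0.0345), as 1 of 8 hepatocyte and 1 of 7 endothelial markers tested. The Alb call was lost with the replicate block and without wt_normal replicate 2 or 3, any ko_normal library, or replicate 2 or 3 of either HFD group (adjusted p up to 0.0941). The Lyve1 call was lost without wt_normal replicate 2 or 3, ko_normal replicate 1 or 3, wt_HFD replicate 3 or ko_HFD replicate 1 or 2 (adjusted p up to 0.0872). Endothelial marker sums were 212 to 253 CPM in wt_normal against 98.6 to 145 CPM in ko_normal, and 113 to 189 CPM in wt_HFD against 86.0 to 148 CPM in ko_HFD. Markers differed by diet too. The hepatocyte marker Cps1 fell by 1.07 on HFD averaged over genotypes and passed in edgeR. That call was lost in 10 of 18 alternatives (adjusted p up to 0.112). For HFD in wt livers, 5 of 7 endothelial markers had an unadjusted p under 0.05 in edgeR (2453 of all 14433 genes). All 7 fitted differences there lay below 0, and 0 passed. Macrophage sums ran from 143 to 386 CPM and overlapped between the genotypes. Of the 8 adipocyte markers 7 were detected. Adipocyte sums overlapped between the genotypes on each diet, and Adipoq reached at most 2.05 CPM, in wt_normal replicate 2. The part of cell composition in the lipogenic values was not tested.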

How the data were processed

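RNA of 12 mouse liver libraries was sequenced. The authors deposited raw counts of reads, 1 file a library with 1 value a gene. The submitters' processing notes list CASAVA 1.8, Bowtie 0.12.2 and the builds mm8 and mm9. Not given in the sources used here are the counting tool, its annotation and its strand setting. Counts were used as deposited. Gene identifiers were matched to symbols and positions in the GENCODE annotation of GRCm38 (52403 of 52636 matched), which are not the authors' coordinates.

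Groups and replicate numbers came from the labels. Genes with low counts were removed with filterByExpr of edgeR 4.0.16, which left 14433. One quasi-likelihood fit of 4 group means to all 12 libraries with TMM scaling had 8 residual and 4.66 prior degrees of freedom. There were 7 two-sided comparisons, with Benjamini-Hochberg adjustment over all genes tested and a threshold of 0.05. CPM are counts divided by TMM-scaled totals, with SD over 3 libraries. The tests were tried on simulated counts. Log2 CPM for profiles used a prior count of 2.

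All 10 members are named, with a fitted difference in a comparison where the unadjusted p was under 0.05; a few others are given as context and were chosen after their values were seen. Of each pathway list, called genes and at most 3 with the smallest p are named; 1 result is not reported here. The 5 nearest genes in profile are named by distance. Members and lists were chosen with earlier results of these data known. Alternatives were DESeq2 1.42.0, its size factors within edgeR, other filters, fits of only the groups compared, the replicate number as a block, totals without mitochondrial genes, and each library left out. Replicate numbers were checked as a pairing: of 18 same-numbered pairs of libraries, 4 had deviations correlated over 0.1 (range -0.209 to 0.332). Pairs with different numbers ranged from -0.248 to 0.235. The numbers were not treated as pairs, although correlations from so few libraries cannot exclude a pairing.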

Additional observations from a re-analysis of the deposited data

How the results depend on the processing

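Over the 31 member differences with an unadjusted p under 0.05, 576 alternative values were computed: 545 kept both direction and side of the threshold, 30 newly passed, 1 no longer passed (Fasn for genotype over both diets without wt_normal replicate 3) and 0 reversed. The number of members called depended on the test. For genotype on normal diet it was 0 in the main test, 2 with no filter on low counts, 2 with DESeq2, 1 with only the groups compared, 1 with the replicate block and 0 to 1 with a library left out. For HFD against normal diet in wt it was 0, then 2 with no filter, 1 with DESeq2 and 0 to 1 with a library left out. For genotype over both diets it was 1, then 4 with no filter (Fasn, Scd1, Thrsp and Mlxipl), 3 with DESeq2 (Fasn, Thrsp and Mlxipl) and 0 to 2 with a library left out. For diet over both genotypes it was 0, then 4 with no filter, 2 with DESeq2 and 0 to 2 with a library left out. The cause was not tested. Genotype on HFD, diet in ko and the change of the ko effect between diets had 0 members called under each alternative run. The replicate block, which rests on numbers not shown to pair the samples, altered no other count of members called. Counts over all genes moved more: 30 (3 to 648 over the alternatives) for genotype on normal diet, 10 (2 to 95) on HFD, 100 (9 to 696) for diet in wt, 0 (0 to 37) in ko, 168 (45 to 860) and 150 (45 to 807) for the averaged comparisons, and 0 (0 to 19) for the change of the ko effect.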
